A study of Homo sapiens with 12 samples.

Results

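The genes described here encode the machinery that writes N6-methyladenosine (m6A) onto RNA. They are METTL3, METTL14, WTAP, VIRMA, ZC3H13, CBLL1, RBM15, RBM15B and METTL16, chosen by name for what their proteins do and found in the peak lists by their Entrez gene numbers. All 9 carried at least 1 m6A peak. The lists named 10536 genes, all with at least 1 peak, and shares of all genes below refer to these. Genes without a peak are not listed, so the share of genes with a peak is unknown. Transcripts came from 143B cells, a human osteosarcoma line, 48 h after transfection with siRNA against ALKBH5 or with scrambled siRNA. ALKBH5 removes the methyl group that the writers add. The lists came from 3 m6A immunoprecipitates of ALKBH5 knockdown and 3 of the scrambled control, and the 6 input samples of the series were not analysed here. According to the protocol, replicate 1 took polyadenylated RNA and a Synaptic Systems antibody, replicate 2 total RNA and the Magna MeRIP kit, and replicate 3 polyadenylated RNA and a further antibody. The antibody field names the antibody of replicate 1 for every library. All groups share a single cell line and a transient transfection. The labels do not say whether the numbers were separate cultures, so p-values measure only the spread between these libraries. That spread takes in the differences in RNA type and antibody between replicate numbers.

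As background, most m6A in messenger RNA is placed by a large nuclear complex. METTL3 is its catalytic subunit, METTL14 is the partner that helps bind RNA and holds METTL3 in shape, and WTAP brings the pair to nuclear speckles. VIRMA, ZC3H13 and CBLL1 (also known as HAKAI) are further adaptors around WTAP, and RBM15 and RBM15B are RNA-binding proteins that help choose where the complex acts. METTL16 is a separate enzyme that methylates a few structured RNAs, among them U6 small nuclear RNA and hairpins in the MAT2A transcript. The peaks described below lie on the transcripts of these genes, and the lists hold neither protein nor RNA levels.

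Covered length is used here for the summed exon length of all peaks that carry a gene's number in a list. A gene or region was called in a library if that list had a peak there. Lists differed greatly in size, from 5917 to 18360 peaks in the knockdown libraries and from 5677 to 18724 in the scrambled libraries, both with replicate 2 as the shortest. The summed peak length of the knockdown list was 1.56, 1.13 and 1 times that of its same-numbered control in replicates 1, 2 and 3. No read counts were in the lists, so depth is unknown, and a site without a call may still carry the mark. A peak in bulk RNA also cannot separate fewer cells with a transcript from less RNA per cell. ALKBH5 had no peak in the 3 knockdown libraries, against 210, 0 and 150 nt in scrambled replicates 1, 2 and 3. Fewer knockdown than scrambled calls were found for 17.1% of all genes. These peaks are no measure of ALKBH5 RNA, so they cannot check the knockdown. Of the bone and osteosarcoma markers, RUNX2, COL1A1, SPP1 and BGLAP had a peak in at least 1 list, and SP7, COL1A2, SPARC and ALPL had none.

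The writer transcripts were called widely in both conditions, and no member separated the conditions by covered length. Knockdown replicates 1, 2 and 3 called 9, 7 and 9 of the 9 genes, and the scrambled libraries called 9, 6 and 9. Of all 10536 genes, the same knockdown libraries called 8267, 3373 and 9125, and the scrambled libraries 7010, 3305 and 9288. Most genes were thus called in each library of replicates 1 and 3. WTAP, VIRMA, RBM15, RBM15B, ZC3H13 and METTL16 were called in all 6 libraries, that is 6 of 9 members beside 23.3% of all genes. METTL3 and METTL14 were called in all 4 libraries of replicates 1 and 3 and in neither library of replicate 2, a pattern of 23.3% of all genes. CBLL1 was called in 3 knockdown and 2 scrambled libraries, the 1 member with more knockdown calls, beside 26.1% of all genes, and no member had fewer, beside 17.1% of all genes.

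**Figure D1:**
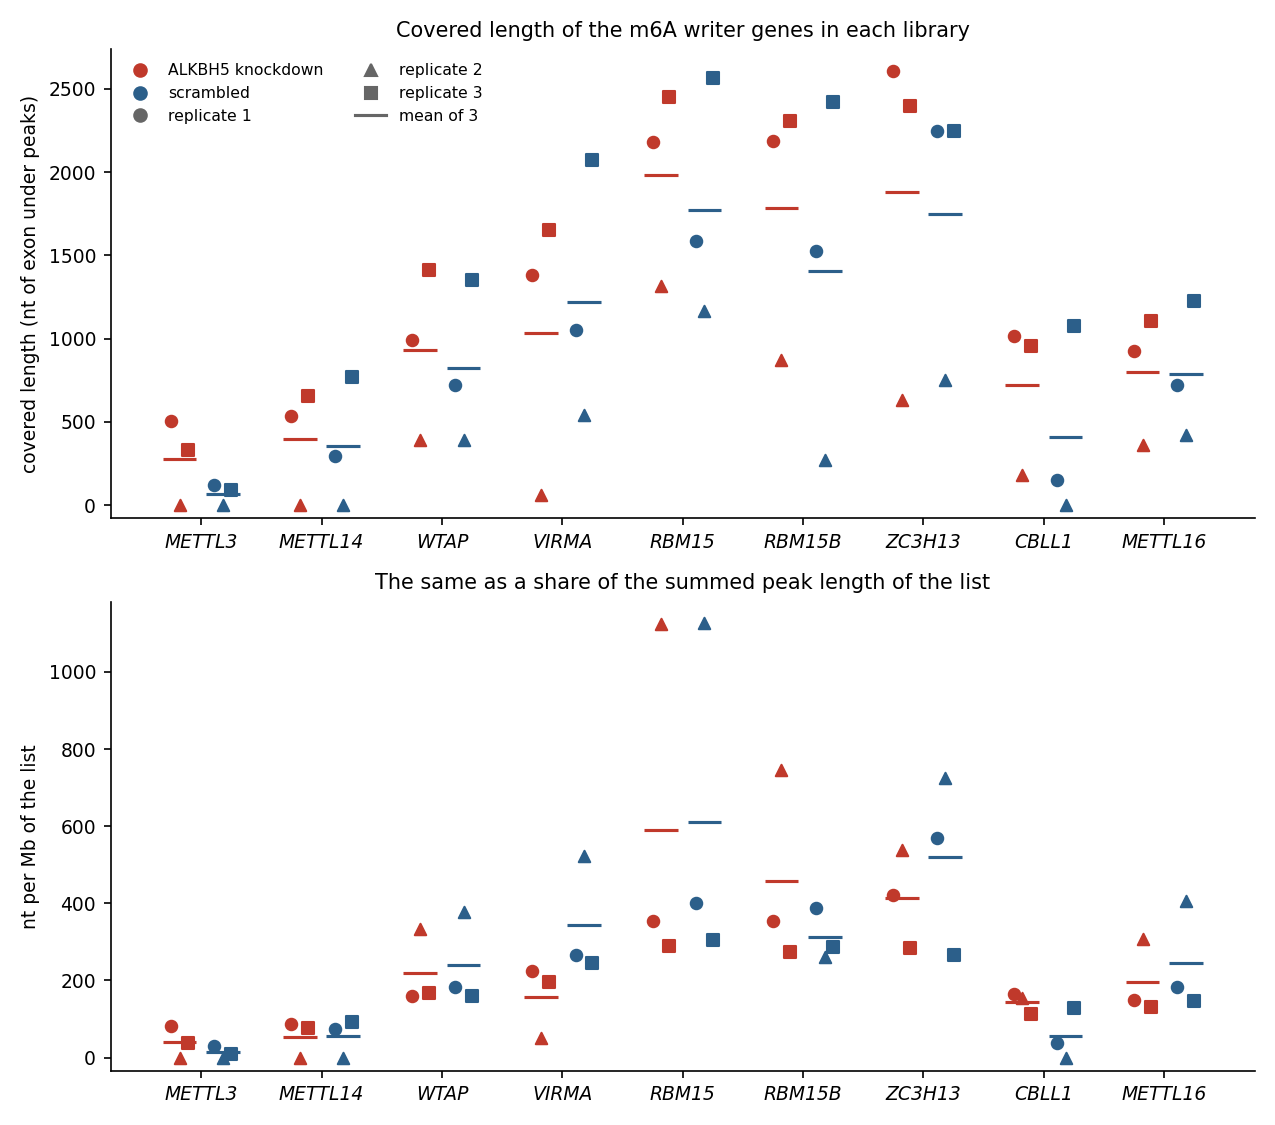
Covered length in nt (top) and the same per Mb of summed peak length in the list (bottom) for each of the 9 genes. Points are single libraries, ALKBH5 knockdown left of scrambled, with the shape giving the replicate number, and bars are means of 3. In nt no gene separates the conditions, while per list length the 3 VIRMA values of the knockdown, at most 224, lie below the scrambled values, at least 246.

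Over the 9 genes together, covered length summed to 12334, 3811 and 13262 nt in knockdown replicates 1, 2 and 3, against 8419, 3541 and 13828 nt in the scrambled replicates. The means were 9802 ± 5209 nt in the knockdown and 8596 ± 5146 nt in the control (SD, n = 3 each), a difference of 1206 nt. These SDs take in the differences between replicate numbers, which differ in RNA type and antibody, so they do not measure the spread within pairs. Within pairs the knockdown sum was 1.47, 1.08 and 0.959 times the control, beside ratios of 1.56, 1.13 and 1 for the whole lists. As a share of its list, the sum came to 1998, 3254 and 1570 nt per Mb (megabase of summed peak length) in the knockdown and 2133, 3416 and 1640 in the control. That share was lower in the knockdown in all 3 pairs, by a small margin in each. In nt it was higher in the knockdown in replicates 1 and 2.

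For every gene with a peak, covered length was compared between conditions with a two-sided exact permutation test over the 6 libraries, with Benjamini-Hochberg adjustment over all 10536 genes. The design cannot give a p below 0.1, so 0 genes passed an adjusted threshold of 0.05 and 0 an unadjusted one, and the values below rest on their size and on how many libraries show them. The smallest p was reached by 0 of 9 members, beside 0.313% of all genes. Every knockdown value lay above every control value in 0 of 9 members, beside 0.285% of all genes, and below in 0 of 9, beside 0.0285% of all genes. Within replicate 1 all 9 members were longer in the knockdown, beside 80.7% of genes called in either library of that pair. Within replicate 2 it was 3 of the 7 members with a call, beside 52.4% of genes, and within replicate 3 it was 3 of 9, beside 48.2%. METTL3, WTAP and ZC3H13 were longer in both replicates 1 and 3, that is 3 of 9 members beside 45% of genes. No member was longer in the knockdown in all 3 pairs, beside 13% of all genes. The permutation test ignores these pairs, so a large p from it is no evidence of equal values. An exact sign-flip test of the 3 pairs, which cannot go below 0.25, gave p = 0.5 or more for every member.

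**Figure D2:**
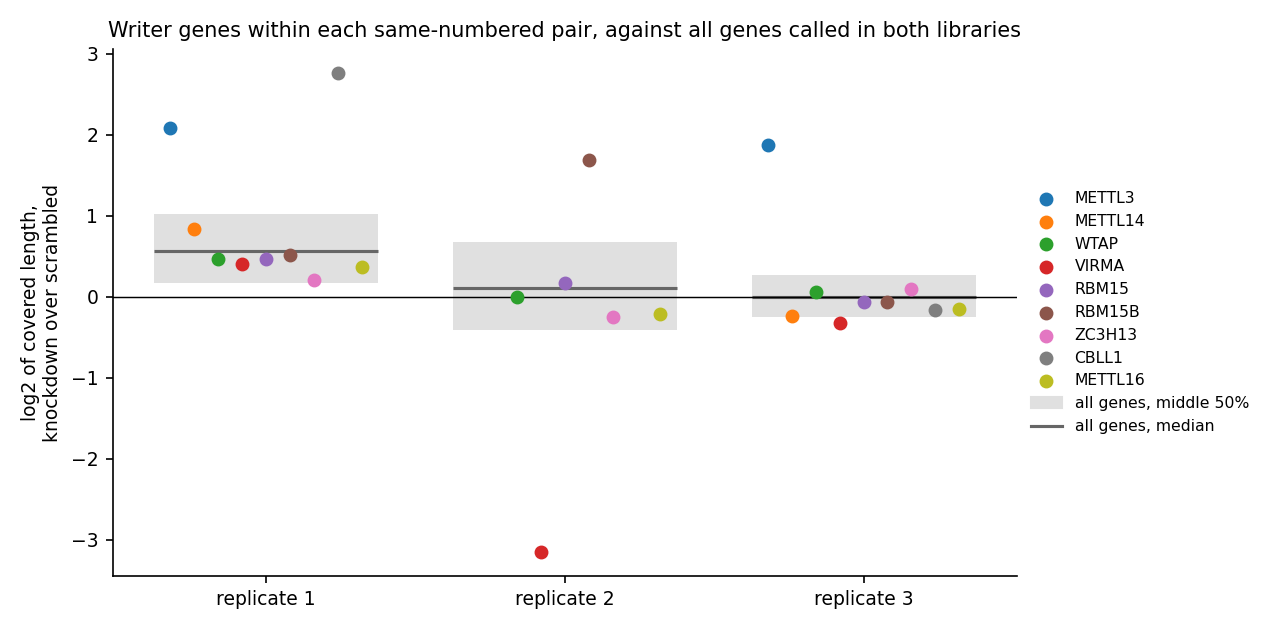
Log2 ratio of covered length, knockdown over scrambled, within each same-numbered pair, for the writer genes called in both libraries (coloured points) and for all such genes (grey box, middle 50%, with the median line). METTL3 stands at 2.08 and 1.87 in replicates 1 and 3, CBLL1 at 2.76 in replicate 1, and VIRMA at -3.15 in replicate 2, while most members lie inside the grey boxes.

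Within pairs, the median ratio of the writer genes was close to that of all genes. Among genes called in both libraries of a pair, the median log2 ratio of covered length, knockdown over scrambled, was 0.56, 0.11 and 0.00 in replicates 1, 2 and 3, over 6483, 2531 and 8463 genes. For the members it was 0.46, -0.11 and -0.07, over 9, 6 and 9 members. The values of METTL3, CBLL1, VIRMA and RBM15B lay away from these medians in at least 1 pair, and they are described with their genes.

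METTL3, the catalytic subunit, had the shortest covered length of the 9 genes in both conditions. It covered 507, 0 and 329 nt in knockdown replicates 1, 2 and 3, against 120, 0 and 90 nt in the scrambled replicates. Both knockdown libraries with a call were longer than both control libraries with a call, and the libraries of replicate 2 were level at 0. The means were 278.7 ± 257 nt in the knockdown and 70 ± 62.4 nt in the control (SD, n = 3 each; exact permutation test, p = 0.4, adjusted p = 1). Within pairs the log2 ratio was 2.08 in replicate 1 and 1.87 in replicate 3, larger than in 94.9% and 98.7% of genes called in both libraries of those pairs. A covered length at least 2 times as long in the knockdown in both pairs was found for METTL3 alone among the 9 members, beside 1.46% of genes called in all 4 libraries. That criterion was chosen after the METTL3 values were seen. Without knockdown replicate 2, METTL3 and ZC3H13 were the 2 of 9 members whose remaining knockdown values all lay above the control values, beside 13.6% of all genes. Without both libraries of replicate 2 the same 2 members did so, beside 13.7% of all genes.

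The METTL3 peaks lay at 2 places on the minus strand of chromosome 14 (positions throughout are as deposited, on hg19 and 1-based). The 3′ region, at 21971324 to 21971651, covered 298 and 179 nt in knockdown replicates 1 and 3, against 120 and 90 nt in scrambled replicates 1 and 3. A stretch of 60 nt at 21971384 to 21971443 was shared by all 4 of these libraries. The 5′ region was called in knockdown replicates 1 and 3 but in no scrambled library, and its peaks crossed a splice junction. On its 3′ side both libraries had the same block of 17 nt at 21972008 to 21972024. Upstream of the intron lay a block that ran from 21979266 to 21979457 in replicate 1 and to 21979398 in replicate 3. The upstream block was 192 nt in knockdown replicate 1 and 133 nt in knockdown replicate 3. Both blocks together came to 209 and 150 nt. This 5′ region was the only one of the 22 writer regions called in at least 2 knockdown libraries and no scrambled library, beside 2.44% of all 21675 regions. The reverse was found for 0 of the 22, beside 0.978% of all regions. Whether these blocks are coding or untranslated was not determined, because no annotation of hg19 was used here.

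METTL3 peaks were low-ranked in each of the 4 lists that held them. On a scale within each list where 100 is the best score, its best peak stood at 26.3 and 20.1 in knockdown replicates 1 and 3, against 20.3 and 13.3 in scrambled replicates 1 and 3. The 5′ peak stood at 24.6 and 15.3 in the knockdown libraries. All 4 lists placed METTL3 in their lower-scored 50%. With only the best-scored 50% of each list kept, or with all lists at the length of the smallest, METTL3 had no peak left and its difference was 0.

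METTL14, which forms a heterodimer with METTL3, had 1 region on the plus strand of chromosome 4, at 119626892 to 119631899. It covered 535, 0 and 654 nt in knockdown replicates 1, 2 and 3, against 298, 0 and 772 nt in the scrambled replicates. The knockdown was the longer in replicate 1 and the control in replicate 3, so the groups overlapped (396.3 ± 348 against 356.7 ± 389 nt, SD, n = 3 each; exact permutation test, p = 1.0, adjusted p = 1). In replicate 3 the peak was spliced in both conditions, with its upstream block ending at 119626976 and its downstream block starting at 119631153. In replicate 1 it lay in the downstream block alone. The 4 calling libraries shared 209 nt. The best peak stood at percentiles of 61.8 and 73.9 in knockdown replicates 1 and 3, against 59.8 and 77.6 in the matching controls, well above those of METTL3.

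WTAP, the adaptor that recruits the METTL3 and METTL14 pair to nuclear speckles, had close values in replicates 2 and 3. It covered 992, 390 and 1410 nt in knockdown replicates 1, 2 and 3, against 721, 391 and 1351 nt in the scrambled replicates. The means were 930.7 ± 513 nt in the knockdown and 821 ± 488 nt in the control (SD, n = 3 each; exact permutation test, p = 0.8, adjusted p = 1). Its regions on the plus strand of chromosome 6, at 160169302 to 160170051 and 160174530 to 160176722, were called in all 6 libraries. A further region upstream, at 160148616 to 160157320, was called in scrambled replicate 1 alone, as a spliced peak of 151 nt. The best WTAP peak stood at percentiles of 98.0, 57.8 and 81.1 in the knockdown and 71.0, 74.2 and 82.0 in the control.

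**Figure D3:**
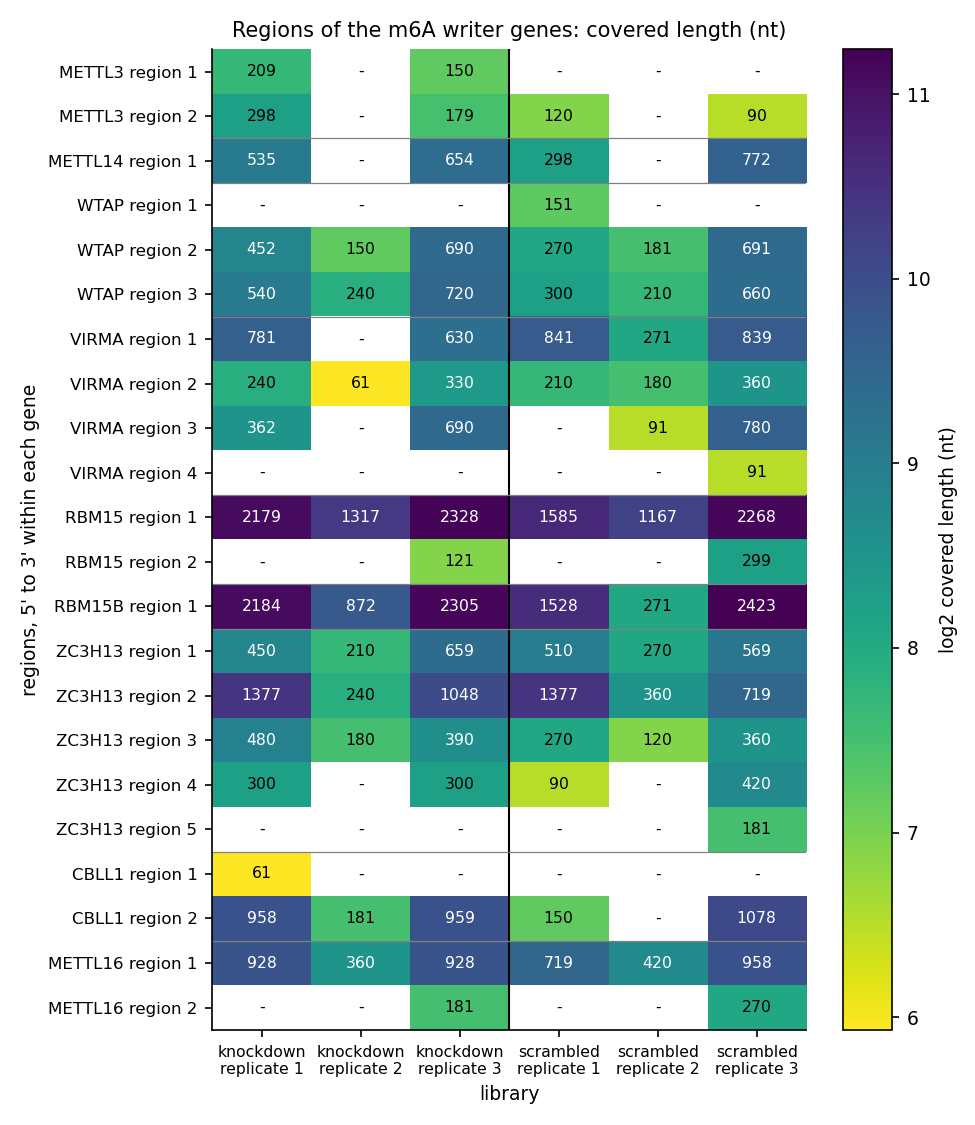
Covered length in nt (numbers, and log2 as colour) of each of the 22 regions of the 9 genes in each library, ALKBH5 knockdown in the left 3 columns and scrambled in the right 3, with a dash where the library had no peak. Rows run 5′ to 3′ within a gene. METTL3 region 1 is the only one with calls in 2 knockdown libraries and in none of the scrambled libraries, and 9 regions are filled in all 6 columns.

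The 9 genes held 22 regions, and the region map shows which libraries called each. All 6 libraries called 9 of the 22, beside 12.7% of all regions. Regions with calls in the knockdown alone numbered 2 of the 22, the 5′ region of METTL3 and a 61 nt region of CBLL1, beside 16.1% of all regions. Regions with calls in the control alone numbered 3 of the 22, each from a single library, in WTAP, VIRMA and ZC3H13, beside 16.3% of all regions. Splice-crossing peaks were present in 10 of the 22 regions, and the share of all regions with such peaks was not computed. Of the 22, 3 were called in replicates 1 and 3 of both conditions and not in replicate 2, beside 17.1% of all regions. They were the 3′ region of METTL3, the METTL14 region and region 4 of ZC3H13.

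VIRMA, a large scaffold protein of the complex, was the 1 member whose mean covered length was lower in the knockdown. It covered 1383, 61 and 1650 nt in knockdown replicates 1, 2 and 3, against 1051, 542 and 2070 nt in the scrambled replicates. The knockdown was longer in replicate 1 and shorter in replicates 2 and 3, and the groups overlapped (1031 ± 851 against 1221 ± 778 nt, SD, n = 3 each; exact permutation test, p = 0.8, adjusted p = 1). The log2 ratio of -3.15 in replicate 2 was lower than in all but 0.1% of the 2531 genes called in both of those libraries. With all lists at the length of the smallest, the VIRMA difference was -800.7 nt (exact permutation test, p = 0.2, adjusted p = 1). In the replicate 2 pair the knockdown had 1 peak of 61 nt where the control had 3 peaks. Its best peak ranked 5727.5 of 5917 in knockdown replicate 2 and 2088.5 of 5677 in scrambled replicate 2.

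As a share of the list, VIRMA was lower in every knockdown library than in every control library. It took up 224, 52.1 and 195 nt per Mb in knockdown replicates 1, 2 and 3, against 266, 523 and 246 in the scrambled replicates. The means were 157 ± 92.1 in the knockdown and 345 ± 154 in the control (SD, n = 3 each; exact permutation test, p = 0.1, the smallest possible, adjusted p = 1 over all genes). This was the case for 1 of the 9 members, beside 1.59% of all genes, and the opposite for 0 of 9, beside 2.65%. The share depends on the length of the rest of the list, which was longer in the knockdown in replicates 1 and 2, so the nt values and the shares are both given.

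The VIRMA peaks lay on the minus strand of chromosome 8 in 4 regions. The region at 95531222 to 95531581 was called in all 6 libraries, with 240, 61 and 330 nt in the knockdown and 210, 180 and 360 nt in the control, and 61 nt were common to all. The most 5′ region, at 95538626 to 95541500, covered 781, 0 and 630 nt in the knockdown and 841, 271 and 839 nt in the control. It was longer in the control in every pair, and the share of all regions with that pattern was not computed. The region at 95522806 to 95523910 was called in 2 libraries of each condition, and the one at 95500813 to 95500903 in scrambled replicate 3 alone. Of the 2400 nt under any VIRMA peak, 2.46% were covered in knockdown libraries alone and 23.7% in control libraries alone.

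ZC3H13, a zinc finger protein known from mouse stem cells to hold the adaptors in the nucleus, had the most regions of the 9 genes. It covered 2607, 630 and 2397 nt in knockdown replicates 1, 2 and 3, against 2247, 750 and 2249 nt in the scrambled replicates. The knockdown was longer in replicates 1 and 3 by 360 and 148 nt and shorter in replicate 2 by 120 nt (1878 ± 1086 against 1749 ± 865 nt, SD, n = 3 each; exact permutation test, p = 0.6, adjusted p = 1). Without knockdown replicate 2, the remaining ZC3H13 values of the knockdown lay above those of the control, as they did for 13.6% of all genes.

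The 5 regions of ZC3H13 lay on the minus strand of chromosome 13, and 3 of them were called in all 6 libraries. The region at 46543215 to 46549947 held the longest peaks, which spanned 3 exon blocks and reached 1377 nt in both libraries of replicate 1. In those lists they were among the best-ranked of all peaks, at rank 83 of 17563 in knockdown replicate 1 and 41 of 15139 in scrambled replicate 1. In replicate 2 the same region covered 240 nt in the knockdown and 360 nt in the control. The region at 46541658 to 46542137 was longer in the knockdown in all 3 pairs. It covered 480, 180 and 390 nt, against 270, 120 and 360 nt in the control. So was the WTAP region at 160174530 to 160176722, with 540, 240 and 720 nt against 300, 210 and 660 nt. The main RBM15 region was as well, with 2179, 1317 and 2328 nt against 1585, 1167 and 2268 nt. The share of all regions with this pattern was not computed. The region at 46530074 to 46530254 was called in scrambled replicate 3 alone.

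CBLL1, a RING-type ubiquitin ligase that sits in the complex as an adaptor, differed most between conditions in replicate 1. It covered 1019, 181 and 959 nt in knockdown replicates 1, 2 and 3, against 150, 0 and 1078 nt in the scrambled replicates. Scrambled replicate 3 was the longest of the 6, so the groups overlapped (719.7 ± 467 against 409.3 ± 584 nt, SD, n = 3 each; exact permutation test, p = 0.6, adjusted p = 1). The log2 ratio of 2.76 in replicate 1 was larger than in 98.2% of genes called in both libraries, while in replicate 3 it was -0.17. Without scrambled replicate 3, CBLL1 was the 1 of 9 members whose knockdown values all lay above the control values, beside 4.29% of all genes. Without both libraries of replicate 3 it was again 1 of 9, beside 4.91% of all genes.

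The calls of CBLL1 lay mainly in 1 region on the plus strand of chromosome 7, at 107398643 to 107399720. It was called in 3 knockdown libraries and 2 scrambled libraries. The knockdown peaks of replicates 1 and 3 were nearly the same, at 107398643 to 107399600 and 107398672 to 107399630. In scrambled replicate 1 only the part at 107399271 to 107399420 was called, and in scrambled replicate 3 the whole of the region was. Its best peak stood at percentiles of 84.7, 52.6 and 84.6 in the knockdown, against 41.7 in scrambled replicate 1 and 97.4 in scrambled replicate 3. A further region of 61 nt, at 107384369 to 107384429, was called in knockdown replicate 1 alone at percentile 0.7, among the weakest calls of that list.

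**Figure D4:**
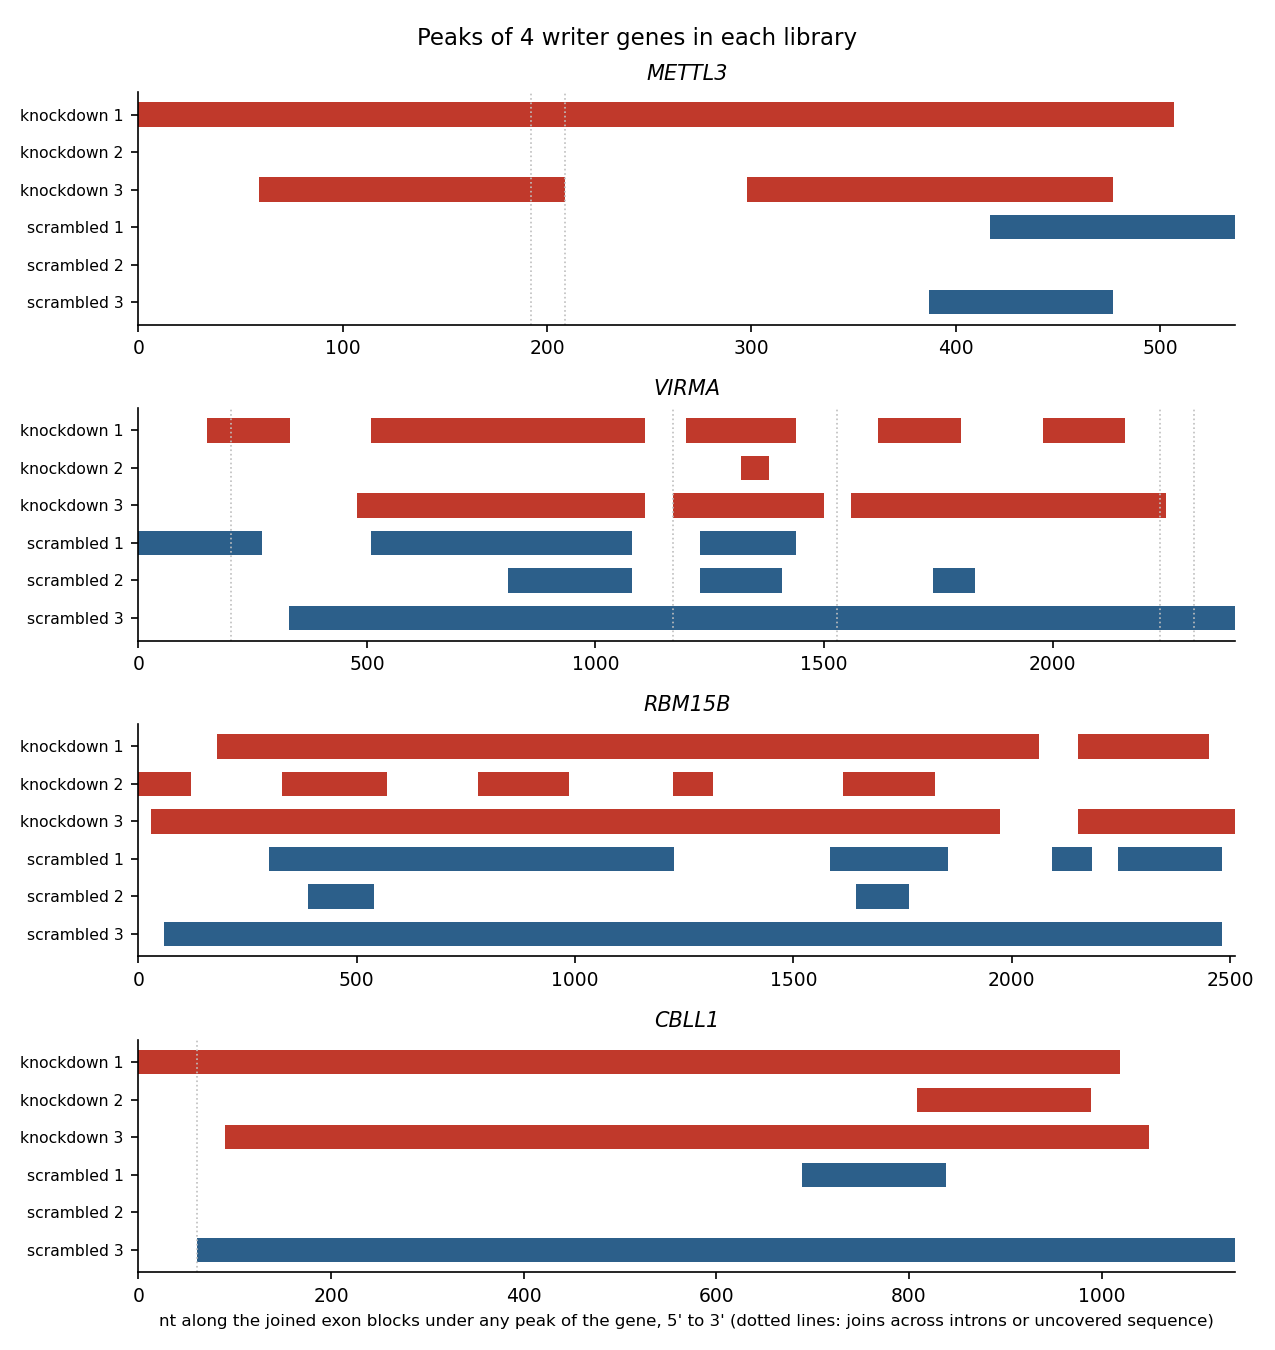
Peaks of METTL3, VIRMA, RBM15B and CBLL1 in each library, knockdown in the upper 3 rows and scrambled in the lower 3, along the exon blocks under any peak of the gene, joined 5′ to 3′ (x axis in nt). Dotted lines mark joins, where separate peaks can touch. The left block of METTL3 is covered in knockdown replicates 1 and 3 alone, and RBM15B is covered by between 1 and 5 peaks of 1 region.

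RBM15, an RNA-binding protein that helps direct the complex, was among the most covered transcripts of every list. It covered 2179, 1317 and 2449 nt in knockdown replicates 1, 2 and 3, against 1585, 1167 and 2567 nt in the scrambled replicates. The knockdown was longer in replicates 1 and 2 and shorter in replicate 3 (1982 ± 591 against 1773 ± 719 nt, SD, n = 3 each; exact permutation test, p = 0.8, adjusted p = 1). By covered length it ranked 277, 59 and 404 among 8267, 3373 and 9125 genes in the knockdown lists and 255, 46 and 330 among 7010, 3305 and 9288 genes in the control lists. The ranks were similar within each pair.

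Nearly all RBM15 signal lay in 1 region on the plus strand of chromosome 1, at 110882512 to 110888198, of which 870 nt were covered in all 6 libraries, more than for any other member. In replicate 3 it formed 1 peak of 2328 nt in the knockdown and 2268 nt in the control. In the other libraries it was broken into 2 to 5 peaks, so that the number of peaks did not count separate sites. A short region downstream, at 110889005 to 110889303, was called in replicate 3 of both conditions. The lists also held peaks without a gene number over the same bases, with 2175, 1253 and 2323 nt in the knockdown and 1551, 1135 and 2323 nt in the control. Between 97.2% and 99.7% of those bases also lay under numbered RBM15 peaks, and these unnumbered peaks were left out of the values above. Among the 9 genes RBM15 was the 1 whose regions held such peaks.

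RBM15B, the paralog of RBM15, had a single region, called as 1 peak in scrambled replicate 3 and as several in the other libraries. It covered 2184, 872 and 2305 nt in knockdown replicates 1, 2 and 3, against 1528, 271 and 2423 nt in the scrambled replicates. The knockdown was longer in replicates 1 and 2, by 656 and 601 nt, and shorter in replicate 3 by 118 nt (1787 ± 795 against 1407 ± 1081 nt, SD, n = 3 each; exact permutation test, p = 0.7, adjusted p = 1). The log2 ratio in replicate 2 was 1.69, larger than in 94.4% of genes called in both of those libraries.

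The RBM15B region lay on the plus strand of chromosome 3, at 51429686 to 51432197. Its peaks numbered 2, 5 and 2 in knockdown replicates 1, 2 and 3, against 4, 2 and 1 in the scrambled replicates. The 1 peak of scrambled replicate 3 was 2423 nt long, and in scrambled replicate 2 the peaks were 151 and 120 nt long. All 271 nt of scrambled replicate 2 were also covered in knockdown replicate 2. By covered length RBM15B ranked 177 of 3373 genes in knockdown replicate 2 and 1201.5 of 3305 in scrambled replicate 2. In replicates 1 and 3 it ranked between 274 and 465.5 in both conditions.

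METTL16, the separate methyltransferase, had nearly equal means in both conditions. It covered 928, 360 and 1109 nt in knockdown replicates 1, 2 and 3, against 719, 420 and 1228 nt in the scrambled replicates. The means were 799 ± 391 nt in the knockdown and 789 ± 409 nt in the control (SD, n = 3 each; exact permutation test, p = 1.0, adjusted p = 1). Its main region on the minus strand of chromosome 17, at 2322875 to 2323832, was called in all 6 libraries and shared 360 nt among them. That stretch, at 2323294 to 2323653, was the whole peak of knockdown replicate 2. A second region, at 2319468 to 2319737, was called in replicate 3 of both conditions, with 181 nt in the knockdown and 270 nt in the control. No METTL16 base was covered in knockdown libraries alone.

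MAT2A, which makes the methyl donor S-adenosylmethionine and is a known METTL16 substrate, had peaks in 2 knockdown libraries and 1 scrambled library. It covered 241, 0 and 390 nt in knockdown replicates 1, 2 and 3, against 0, 0 and 359 nt in the scrambled replicates (exact permutation test, p = 0.7, adjusted p = 1). The peaks lay on the plus strand of chromosome 2, mainly at 85771836 to 85772194 in scrambled replicate 3 and 85771866 to 85772194 in knockdown replicate 3. Whether these bases hold the METTL16 hairpins was not determined.

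Peak number was compared in the same way. The members together had 22, 17 and 20 peaks in knockdown replicates 1, 2 and 3, against 25, 15 and 20 in the scrambled replicates. Peak number lay wholly above the control in 0 of 9 members, beside 0.209% of all genes, and wholly below in 0 of 9, beside 0.152%. In the exact permutation test over all genes, 0 members passed for peak number, and the p-values of single members ran from 0.6 to 1.0 (adjusted p = 1). These values moved with the length of the lists. With all lists at the length of the smallest, VIRMA had 2 fewer peaks on average in the knockdown (exact permutation test, p = 0.1, the smallest possible, adjusted p = 1), with every knockdown library below every control library, beside 0.436% of genes in those lists. With the best-scored 50% of each list, RBM15B averaged 1.667 more peaks in the knockdown (exact permutation test, p = 0.1, adjusted p = 1), with every knockdown library above every control library, beside 0.285% of genes in those lists.

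Same-numbered libraries were also compared base by base. Within replicate 3, the share of the knockdown bases of a gene also covered in its control was 27.4% for METTL3 and between 81.3% and 100% for the other 8 genes. In the other direction, between 76.9% and 100% of control bases were covered in the knockdown. Within replicate 1, the share of control bases also covered in the knockdown was between 75% and 100%. The share of knockdown bases covered in the control was as low as 14.7% for CBLL1 and 17.8% for METTL3. Within replicate 2, the share of control bases also covered in the knockdown ran from 11.3% for VIRMA to 100% for RBM15B. The share of knockdown bases covered in the control ran there from 0% for CBLL1, which had no control peak, to 100% for VIRMA and METTL16. For RBM15B it was 31.1%. Over all libraries, METTL3 had 72.1% of its 537 nt covered in knockdown libraries alone and 5.59% in control libraries alone. For the other 8 genes, bases of the knockdown alone made up between 0% and 10.6%, and bases of the control alone between 3.54% and 23.7%.

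Other genes of the m6A pathway were set beside the writers from lists of known members. Of 12 readers, proteins that bind m6A or the RNA it opens up, 10 had a peak. Of these 10, 4 were called in all 6 libraries, beside 23.3% of all genes. More knockdown than scrambled libraries called 1 of them, beside 26.1% of all genes, and fewer called 2, beside 17.1%. FMR1, HNRNPC and YTHDC1 were the readers with unequal calls. FMR1 had 90 nt in knockdown replicate 1 alone and HNRNPC 61 nt in scrambled replicate 3 alone. YTHDC1, the nuclear reader, covered 569, 0 and 331 nt in the knockdown and 450, 61 and 390 nt in the control. FTO, the other demethylase, covered 479, 180 and 628 nt in the knockdown, against 0, 181 and 509 nt in the scrambled replicates.

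Of 4 further RNA m6A methyltransferases, PCIF1 and ZCCHC4 had a peak. Both were called in more knockdown than scrambled libraries, beside 26.1% of all genes. PCIF1, which methylates the nucleotide next to the cap, covered 330, 180 and 360 nt in knockdown replicates 1, 2 and 3, against 0, 0 and 330 nt in the scrambled replicates. It was longer in the knockdown in all 3 pairs, beside 13% of all genes, but the groups overlapped (exact permutation test, p = 0.3, adjusted p = 1). ZCCHC4, which methylates the large ribosomal RNA, covered 180, 0 and 180 nt in the knockdown and 0 nt in each scrambled library (exact permutation test, p = 0.4, adjusted p = 1). METTL5 and its partner TRMT112 had no peak. Of the 5 genes of S-adenosylmethionine supply with a peak, 3 were called in more knockdown libraries, beside 26.1% of all genes. MAT2A and AHCY were among them. AHCY covered 121, 0 and 61 nt in the knockdown and 211, 0 and 0 nt in the control, so its mean length was lower in the knockdown. AHCYL2 was called in fewer knockdown libraries, beside 17.1% of all genes. No gene named from these lists had knockdown and control values that did not overlap, and 0 passed the permutation test.

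The 2 genes whose covered length was most like each of the 3 most covered writers were looked up among all genes. Likeness was the Euclidean distance of log2(covered length + 1) over the 6 libraries. For RBM15 they were SOX4 and RIN3, at distances of 0.29 and 0.34. For ZC3H13 they were ZNF865 and ADCY1, at 0.35 and 0.37. For RBM15B they were RTL6 and TMEM265, at 0.39 and 0.43. RTL6 covered 2217, 840 and 2424 nt in the knockdown and 1647, 210 and 2454 nt in the control. Its low value in scrambled replicate 2, like that of RBM15B, follows from the choice, because likeness was measured over these same values.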

How the data were processed

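The authors deposited 1 peak list per immunoprecipitated library, with exon blocks, an Entrez gene number and a score per peak. That deposited score was read as a p-value because its values end at 0.011 (the headers do not define it), and it served to rank and filter peaks of one list at a time. Per the submitters' processing notes, CASAVA 1.8.2, TopHat2, SAMtools and hg19 were used. Their roles, the peak caller, its threshold and any use of input reads were not given in the sources used here. Of single-block peaks, 90.1% had a length within 2 nt of a multiple of 30 nt, so lengths move in steps of about that size.

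Covered length summed the block lengths of a gene's peaks. The summed length of a list counts bases under peaks of several genes more than once. Regions joined peaks of the 6 lists that had 1 bp or more of exon block in common on one strand. Percentiles ran to 100 for the best score. Gene numbers were turned into symbols through RefSeq (GRCh38.p14, names only), with 10500 of 10536 matched. Peaks without a number (7.4 to 8.6% of a list) entered regions only. Tests were two-sided exact permutation tests over libraries with Benjamini-Hochberg adjustment, run with numpy 2.4.6 and checked on simulated data. The simulated libraries lacked the differences in list size found here, so that check covers the code and not the behaviour of the test in this design. The replicate numbers pair the libraries, since the protocol ties each to an RNA type and antibody, and across genes the deviations from the group mean correlated within numbers 1, 2 and 3 (0.32, 0.47 and 0.40). An exact sign-flip test was the paired alternative. Named genes were all members, up to 3 per pathway or marker list by difference in calling libraries (ties by symbol), ALKBH5, MAT2A and 2 like genes for each of the 3 most covered members. Genes named beyond it (TRMT112 and 5 of the bone markers) were added after their values were seen, and some list genes are not reported here. Members, lists and tests were chosen with earlier results of these data known. Sequences under the peaks were not used here.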

Additional observations from a re-analysis of the deposited data

How the results depend on the processing

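No alternative gave any member an adjusted p below 0.861 for covered length or 1 for peak number. Merging overlapping peaks moved no member's value. Of 117 other alternative values of covered length differences over the 9 members, the paired test aside, 89 kept their direction, 26 turned and 2 came to 0 (METTL3, in the shortened lists). Of 108 for peak number, 79 kept it, 8 turned and 21 had a difference of 0 there or in the values reported. Measured as a share of the list (nt per Mb), the difference turned to -0.982 for METTL14, -19.8 for WTAP, -21.42 for RBM15, -105.1 for ZC3H13 and -47.97 for METTL16, the sum over members turned to -122.1, and 1 member (VIRMA) in place of 0 did not overlap between conditions. The divisor, the list's summed peak length, was larger in the knockdown in replicates 1 and 2. With all 6 lists at the size of the smallest, METTL14 turned to -39.33 nt and ZC3H13 to 0.3333 peaks, while VIRMA came to -800.7 nt and -2 peaks. With the best-scored 50% of each list, METTL16 turned to -30 nt, and RBM15 and ZC3H13 to 0.3333 peaks each, while RBM15B came to 1.667 peaks. With 2 peaks needed for a call, 3 in place of 6 members were called in all libraries.

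Leaving out 1 library, or both of a number, gave differences in covered length from 94.5 to 348 nt for METTL3 and from 31 to 644.7 nt for CBLL1, which kept their sign. The sign turned for METTL14 (-138.7 to 247.3), WTAP (-130 to 380), VIRMA (-529.2 to 295.5), RBM15 (-94.33 to 605.7), RBM15B (-188.5 to 887.5), ZC3H13 (-370 to 753.3) and METTL16 (-174.5 to 229.5), and the sum ran from -1321 to 4202 nt. Peak number differences turned for VIRMA (-1.5 to 0.6667), RBM15 (-1.5 to 0.5) and RBM15B (-0.5 to 2). Members without overlap numbered 0 to 2 of 9, beside 0.494% to 16.5% of all genes under the same omissions, and members called in every library 6 to 9, beside 23.7% to 58.8%. With the replicate number as a block (exact sign-flip test of the 3 pairs, smallest p 0.25), METTL3 gave a difference of 208.7 nt with p = 0.5, and no call changed. The cause of these turns was not tested. Depth is unknown, so a call missing from a short list is no evidence of a missing site. The alternatives of the sum over members were chosen after seeing the data.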
